A study of Mus musculus with 8 samples.

Results

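The fibrillar collagen genes described here are Col1a1, Col1a2, Col3a1, Col5a1, Col5a2, Col5a3 and Col11a1. They were found by symbol among the 31053 genes listed in each library, and each of the 7 matched a single Ensembl gene. They were measured by droplet single-cell RNA sequencing (10x Genomics, 3′ libraries) in dorsal skin of female BALB/c mice aged 14 to 16 weeks. In 4 libraries the skin had been injected subcutaneously with PBMCsec, the secretome of irradiated human peripheral blood mononuclear cells, and in the other 4 with a vehicle control. No genotype other than the strain is given. Sample labels name the treatment and number the libraries of each group, but give no time after treatment, no wounding and no composition of the vehicle. Each library came from a dissociated 4 mm biopsy. Nothing in the labels says that the samples of a group were separate mice, so p-values measure the spread between these samples.

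Fibrillar collagens are trimers of long α chains that assemble outside the cell into the banded fibrils that carry tension in the dermis. Type I collagen, built from the products of Col1a1 and Col1a2, is the main component, and type III collagen, a homotrimer of the Col3a1 product, is mixed into the same fibrils. Type V collagen, built from the products of Col5a1, Col5a2 and in some tissues Col5a3, sits in the fibril core and limits its width, and the Col11a1 chain of type XI collagen plays that part in cartilage. Fibroblasts (FBs) are the textbook source of dermal collagen.

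Of the 1457 to 5621 barcodes per library, 10.2% to 32.9% passed the filter on cells, and 929 to 3626 exceeded its limit of 5% mitochondrial counts. The cells kept were 6150 in all and fell into 36 clusters, 4 of which (16.0% of cells) stayed unnamed. The vehicle libraries held 151 to 1659 of these cells and the PBMCsec libraries 313 to 1515, with a median of 6156 to 9521 UMIs (distinct RNA molecules counted) per cell. Libraries shared at most 0.343% of their cell barcodes. The 7 genes and other collagen genes were left out of the genes used for clustering, so no cluster rests on them. Classes were named by marker genes, so FBs stands for FB-like cells, KCs for keratinocyte-like cells, TCs for lymphocyte-like cells named by T and B cell genes, ECs for endothelial-like cells and SMCs/PCs for smooth muscle and pericyte-like cells. FBs were 1611 cells in 9 clusters. The smallest FB samples were 31 and 27 cells, in vehicle libraries 1 and 2, and the largest was 550 cells in PBMCsec library 3. In 7 of these clusters at least 5 of the 8 FB markers, always Pdgfra and Dcn, passed the naming rule. The other 2, clusters 20 and 29, were named by hair follicle dermal markers and also had UMIs of Pdgfra and Dcn. Cluster 20 also passed the naming rule for SMCs/PCs, with 3 markers. The share of Col11a1 UMIs placed in FBs depends on the name of this cluster.

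In FBs the 7 genes together took 3.11% of all UMIs, with 2.39% to 3.60% in single libraries. FBs were 1611 of the 6150 cells but held between 95.6% (Col5a2) and 99.0% (Col1a2) of the UMIs of each gene in kept cells. Kept cells had 104656 of the 339432 Col1a1 UMIs of all barcodes, so most lay outside the cells described here. Levels are given in counts per 1000000 UMIs of the same cells (CPM), which are not scaled to gene length because each molecule is read from its 3′ end. Over the 8 libraries Col3a1 was at 11603 CPM ± 1868 (SD, n = 8 libraries) in FBs, Col1a2 at 9748 ± 1647 and Col1a1 at 7365 ± 1333. The genes of type V collagen were lower. Col5a2 was at 1135 CPM ± 202, Col5a1 at 660 ± 195 and Col5a3 at 497 ± 245. Col11a1 was the lowest at 41.9 CPM ± 39.8, from 3.21 in the lowest library to 101 in the highest.

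The genes lie on 6 chromosomes (mouse build GRCm38, GENCODE M21). Col1a1 is at chr11:94936224-94953042 and Col1a2 at chr6:4504814-4541544, both on the plus strand. Col5a1 is at chr2:27886425-28039514 and Col11a1 at chr3:114030540-114220718, also on the plus strand, and Col5a3 is at chr9:20770050-20815067 on the minus strand. Col3a1, at chr1:45311538-45349706 on the plus strand, and Col5a2, at chr1:45374321-45503282 on the minus strand, are neighbours that face each other, with 24614 bases between them.

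The stretch just upstream of the transcription start is shown for 4 genes whose levels followed different patterns over FB clusters, as described further on. Col1a2 and Col3a1 were highest in the same cluster, Col5a3 was low in that cluster and Col11a1 was concentrated in another. The sequences are the 130 bases before the RefSeq start (GRCm38.p6), read in the direction of the gene. Capitals mark CCAAT, or its reverse complement ATTGG, the motif bound by the factor NF-Y.
Col1a2, chr6:4505488-4505617, plus strand: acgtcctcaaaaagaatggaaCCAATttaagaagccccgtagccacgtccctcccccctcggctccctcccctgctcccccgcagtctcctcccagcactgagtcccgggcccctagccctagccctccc
Col3a1, chr1:45311408-45311537, plus strand: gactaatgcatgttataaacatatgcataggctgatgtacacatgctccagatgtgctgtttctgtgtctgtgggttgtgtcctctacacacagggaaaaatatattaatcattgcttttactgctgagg
Col5a3, chr9:20815068-20815197, minus strand: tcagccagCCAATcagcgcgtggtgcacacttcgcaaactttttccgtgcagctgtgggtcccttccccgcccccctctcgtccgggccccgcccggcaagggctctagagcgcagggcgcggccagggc
Col11a1, chr3:114030410-114030539, plus strand: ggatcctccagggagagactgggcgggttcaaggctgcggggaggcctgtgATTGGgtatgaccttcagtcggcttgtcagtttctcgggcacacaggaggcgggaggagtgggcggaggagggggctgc
The motif stood 109 to 105 bases before the start in Col1a2, 122 to 118 in Col5a3 and, on the other strand, 79 to 75 in Col11a1. No CCAAT was found on either strand in the 250 bases before the start of Col3a1 or Col5a1. Of the 32851 mouse promoter windows of that length, 33.8% held CCAAT on either strand. Letters TATAAA stood 117 to 112 bases before the start of Col3a1 and in 12.4% of all windows, both strands searched. The RefSeq start of Col1a2 lies inside the GENCODE gene, so the window shown is not upstream of the outermost annotated transcript. These matches describe the sequence and were not tested for binding.

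The 9 FB clusters differed widely in collagen level. Clusters are compared here as a description, since they were drawn from the same cells. FB cluster 18, with Mfap4, Cyp26b1, Cpz, Cilp and Cdh4 among its leading genes beside Col1a1, Col1a2 and Sparc, had the highest level of Col1a1, Col1a2 and Col3a1. It held 136 cells, 8.44% of the FBs, but 34.7% of their Col1a1 UMIs, 31.9% of their Col1a2 UMIs and 19.8% of their Col3a1 UMIs. Its share of the Col5a1 UMIs was 13.1% and of the Col5a2 UMIs 11.96%, closer to its share of cells. It held only 2.97% of the Col5a3 UMIs. In all, the 7 genes took 9.49% of the UMIs of this cluster.

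**Figure D1:**
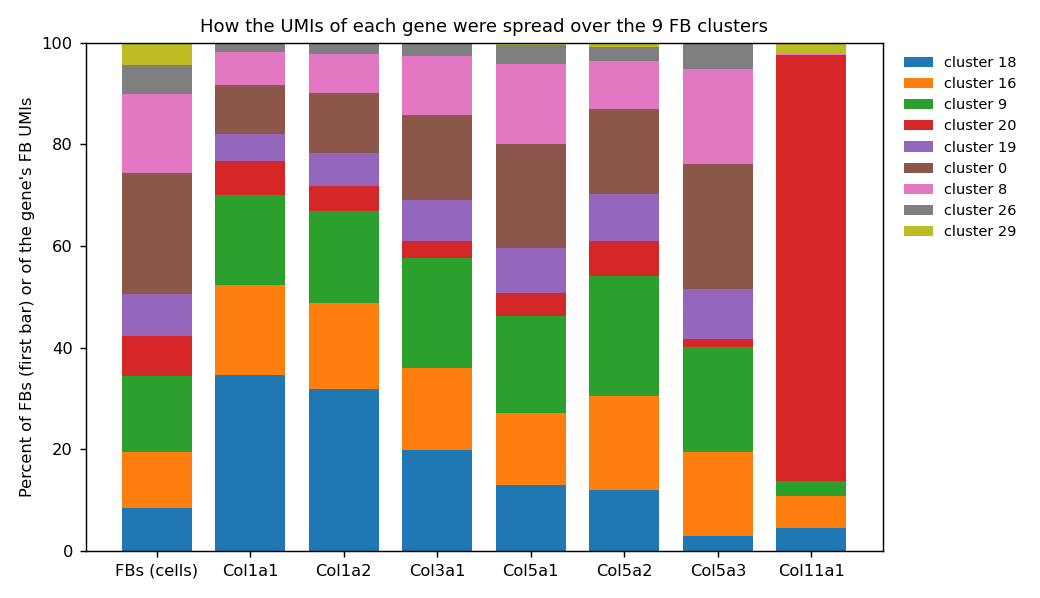
Share of each FB cluster in the FBs (first bar, percent of cells) and in the FB UMIs of each gene (other bars, percent), all 8 libraries summed, with colours for clusters. Cluster 18 (blue) was 8.44% of the cells and 34.7% of the Col1a1 UMIs, and cluster 20 (red) held 83.8% of the Col11a1 UMIs.

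In the 5 libraries with at least 10 cells of cluster 18, Col1a1 was at 22541, 37206 and 31914 CPM after PBMCsec (libraries 1, 3 and 4) and at 22793 and 32887 after vehicle (libraries 3 and 4). Every one of these was above the level of Col1a1 in any other FB cluster, where the highest library value was 13689 CPM in cluster 9. Treatments overlapped in cluster 18. The share of a library's FB Col1a1 UMIs that lay in cluster 18 ranged from 1.45% in vehicle library 1, which had 1 cell of it, to 46.9% in PBMCsec library 3. Without vehicle library 1 the lowest share was 19.7%, in PBMCsec library 2 with 4 cells of the cluster.

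Cluster 16, with Adamts18, Cxcl12, Lepr and Postn among its leading genes, came next for Col1a1 with 9661 CPM ± 3546 (n = 6 libraries), below cluster 18 in 5 of 5 libraries. Cluster 9, led by Mgp, Angptl1, Hmcn2 and Fbln7, followed with 8354 ± 3529 (n = 6). Clusters 16 and 9 kept that order in only 3 of 6 libraries, so they did not differ beyond their spread. Clusters 19 (Sfrp2, Ace, Abca8a), 0 (Fn1, Sfrp2, C3, Tmem100, Pi16) and 8, the fascia-like cluster with Dpp4 and Anxa3 beside Pi16, lay at 4651 ± 1446, 3858 ± 1067 and 3066 ± 745 CPM. Each of these neighbours kept its order in 3 libraries, of 6 for clusters 19 and 0 and of 5 for clusters 0 and 8.

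The inflammatory-like cluster 26, with Ptx3, Ccl2 and Il6, had 2189 CPM of Col1a1 ± 355 (n = 3 libraries), below cluster 8 in 3 of 3 libraries. PBMCsec library 3 gave 57.1% of its cells. The lowest FBs were those of cluster 29, hair follicle dermal-like by 7 markers that include Corin, Wif1, Lef1, Hhip and Crabp1. They had 512 CPM of Col1a1 ± 391, with 60.9 and 721 in PBMCsec libraries 1 and 3 and 753 in vehicle library 3. Only 54.2% of their 72 cells had a Col1a1 UMI, at a median of 4569.5 UMIs per cell. In each of the other FB clusters at least 97.4% of the cells had one.

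**Figure D2:**
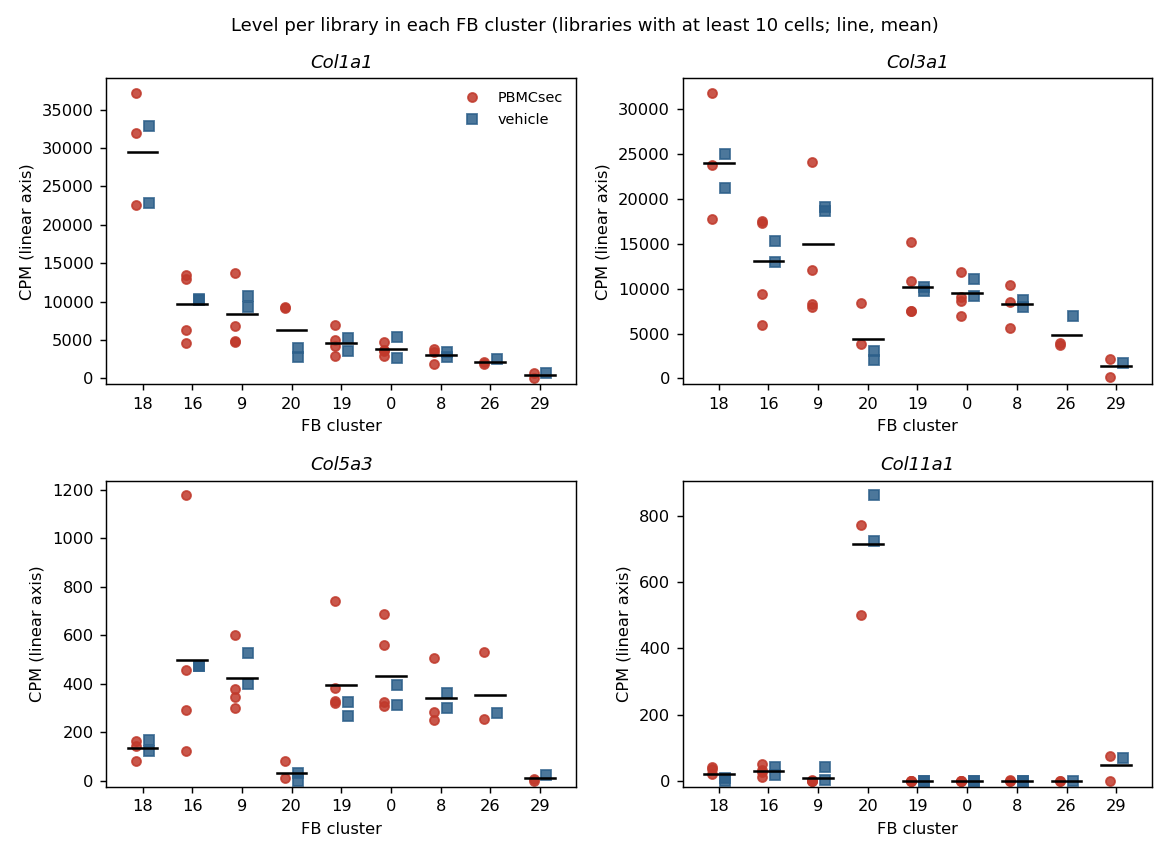
Level (CPM, linear axis) of Col1a1, Col3a1, Col5a3 and Col11a1 in each FB cluster, ordered by Col1a1. Each point is a library with at least 10 cells of the cluster (red circles, PBMCsec; blue squares, vehicle) and the black line is their mean. Col1a1 peaked in cluster 18, Col5a3 was low there, and Col11a1 stood out in cluster 20 alone.

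Col1a2 followed Col1a1 closely. Its level in cluster 18 was 36673 CPM ± 8183 (n = 5 libraries), and the order of clusters by pooled level was the same as that of Col1a1. Across the 7 FB clusters that are not follicle dermal-like, Pearson's r of log2 levels was 0.998 for Col1a1 and Col1a2, 0.965 for Col1a1 and Col3a1 and 0.912 for Col1a1 and Col5a1. These clusters share libraries and depth, so the correlations are a description.

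Col3a1 was the less steep of the major chains. It was at 23988 CPM ± 5214 (n = 5) in cluster 18, 15038 ± 6584 (n = 6) in cluster 9 and 13089 ± 4632 (n = 6) in cluster 16. In clusters 0 and 8, where Col1a1 was low, Col3a1 was still at 9497 ± 1768 and 8285 ± 1748 CPM. The ratio of Col1a1 to Col3a1 UMIs therefore climbed from 0.379 in the fascia-like cluster 8 and 0.395 in cluster 0 to 0.558 in cluster 9, 0.729 in cluster 16 and 1.18 in cluster 18. In cluster 18 it was above 1 in 5 of 5 libraries, from 1.07 to 1.34. In clusters 0, 8, 9, 16, 19, 26 and 29 it was below 1 in every library with at least 10 cells. Cluster 20 was the other exception, with a pooled ratio of 1.29 that was above 1 in 3 of 4 libraries.

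Collagen UMIs were also concentrated in few cells. The 162 FBs with the most Col1a1 UMIs held 53.6% of the FB Col1a1 UMIs, and 41.4% of these cells were in cluster 18. Col1a1, Col1a2 and Col3a1 together took a median of 1.64% of the UMIs of an FB (5th to 95th percentile, 0.348% to 8.02%). In cluster 18 the median was 5.41% and the highest cell reached 27.3%. Only 12 FBs (0.745%) had no UMI of the 3 genes, and all of them were follicle dermal-like.

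Col5a3 had a pattern of its own among FBs. It was at 431 CPM ± 157 in cluster 0, 340 ± 101 in cluster 8, 425 ± 116 in cluster 9, 499 ± 360 in cluster 16 and 395 ± 174 in cluster 19. In cluster 18, the cluster with the most Col1a1, it was at 137 ± 36.1. Its values there were 166, 81.9 and 145 CPM in PBMCsec libraries 1, 3 and 4 and 169 and 121 in vehicle libraries 3 and 4. The ratio of Col5a3 to Col5a1 UMIs was 0.142 in cluster 18 and between 0.672 and 0.842 in clusters 0, 8, 9, 16, 19 and 26. Across the 7 clusters outside the follicle dermis, r of Col5a3 with Col1a1 was -0.62. Over all 9 FB clusters it was 0.42, so its sign turned with the follicle dermal-like clusters 20 and 29. Between the other 6 clusters the library values of Col5a3 overlapped. Both follicle dermal-like clusters were low in Col5a3 as well, with 31.9 CPM ± 37.0 (n = 4) in cluster 20 and 10.1 ± 11.6 (n = 3) in cluster 29.

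Col5a1 and Col5a2, whose products share the classical type V trimer, varied less than the major chains. Col5a1 was at 815 CPM ± 140 in cluster 18 and between 539 and 634 in clusters 0, 8, 9, 16 and 19. Col5a2 was about as high in clusters 9 (1468 ± 389), 16 (1471 ± 301) and 18 (1436 ± 121) and lower in cluster 8 (653 ± 184). Clusters 9 and 18 kept their order for Col5a2 in 3 of 5 libraries, so they were not separated beyond their spread.

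Col11a1 was almost confined to FB cluster 20, which held 83.8% of its FB UMIs in 7.82% of the FBs. Cluster 20 was hair follicle dermal-like by Wif1, Alx4, Itga8, Ednrb and Acta2. Lrrc15, Mylk and Actg2 were also among its leading genes, and it had 2926 CPM of Acta2. Col11a1 was at 501 and 775 CPM there in PBMCsec libraries 3 and 4 and at 864 and 725 in vehicle libraries 3 and 4. It was found in 67.5% of these 126 cells. Clusters 16 and 18 had 29.9 CPM ± 14.7 and 21.7 ± 18.0, and cluster 29, the other follicle dermal-like cluster, had 48.1 ± 41.8. No Col11a1 UMI was found in clusters 0, 19 and 26, and with a count of 0 the 386 cells of cluster 0 allow up to 1.27 CPM (exact Poisson interval). Cells of cluster 20 were unevenly spread over libraries, with 9, 0, 37 and 18 in PBMCsec libraries 1 to 4 and 0, 1, 49 and 12 in vehicle libraries 1 to 4. The libraries with 0 or 1 of them are among those with the least Col11a1 in all FBs, given with the treatment values.

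Within cluster 20, Col1a1 was at 9119 and 9318 CPM in PBMCsec libraries 3 and 4 and at 2853 and 3935 in vehicle libraries 3 and 4. Col1a2 was at 9199 and 9605 after PBMCsec and at 4355 and 4624 after vehicle. These libraries had 37, 18, 49 and 12 cells of the cluster. By edgeR on these 2 libraries against 2, a test added after the values were seen, the log2 fold change was 1.48 (SE 0.29) for Col1a1, 1.11 (SE 0.26) for Col1a2, 1.299 (SE 0.39) for Col3a1, 1.26 (SE 0.45) for Col5a1, 0.78 (SE 0.35) for Col5a2 and -0.27 (SE 0.36) for Col11a1. None of the 6 was called (edgeR adjusted p, 0.852 for Col1a1 and Col1a2 and 0.99995 for the others), and 0% of the 3863 genes tested were. The first 5 were higher in both PBMCsec libraries than in both vehicle libraries, as were 15.3% of all genes tested, and 4 of the 6 had an unadjusted p under 0.05, against 3.88% of all genes. Without vehicle library 4, with 12 cells, the log2 fold change of Col1a1 was 1.81. That fit has a single vehicle library, which is assumed to vary like the PBMCsec libraries, so no call is read from it.

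**Figure D3:**
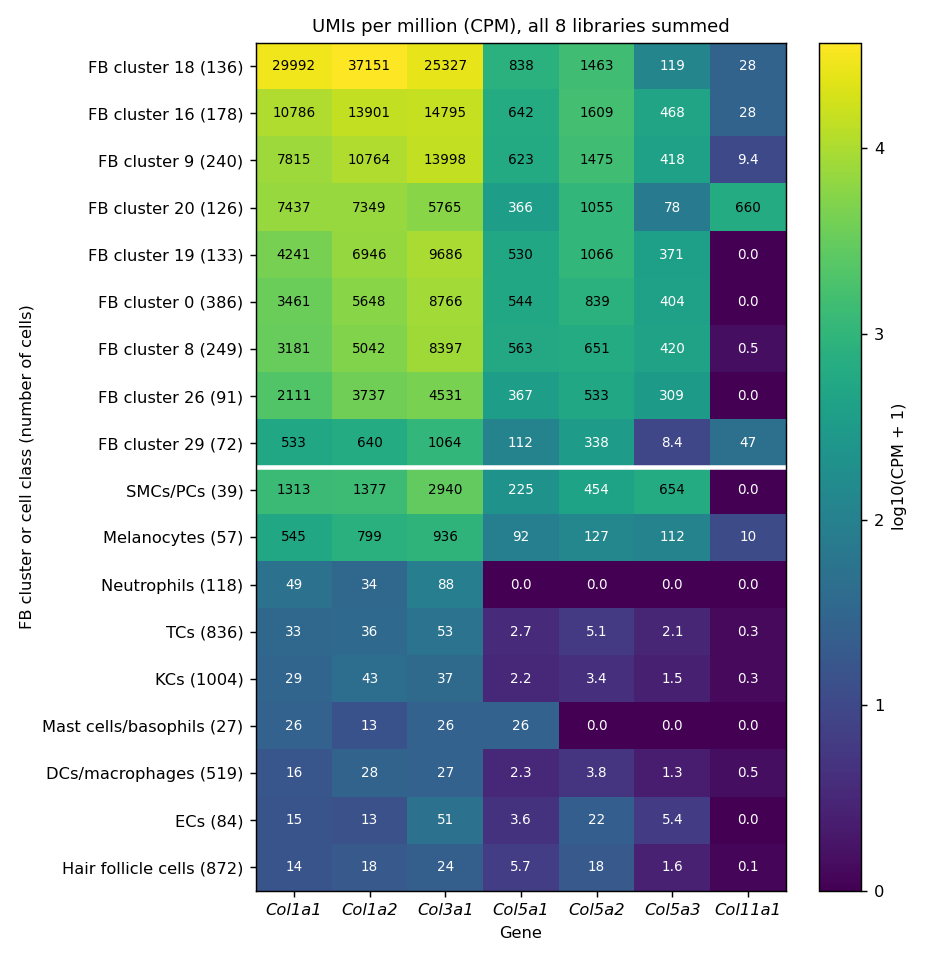
Pooled level (CPM, all 8 libraries summed) of the 7 genes in the 9 FB clusters (above the white line) and in the other named classes (below it), with the number of cells in brackets and colour as log10(CPM + 1). The level of Col1a1 fell from 29992 CPM in FB cluster 18 to 533 in FB cluster 29, and was 14.4 to 49.2 in KCs, TCs, DCs/macrophages, neutrophils, ECs, mast cells/basophils and hair follicle cells.

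Outside the FBs, low counts of the major chains were found in every class. In TCs, which do not make collagen, 9.33% of 836 cells had a Col1a1 UMI (exact binomial interval, 7.44% to 11.5%) and 15.7% had a Col3a1 UMI, at a median of 3342 UMIs per cell. In FBs the shares were 97.0% and 97.95% at a median of 8552 UMIs. Thinned to 1000 UMIs per cell, which left out 8 TCs and 23 FBs, 2.78% of TCs and 89.0% of FBs had a Col1a1 UMI. The median level of Col1a1 over libraries was 0.138% of that in FBs of the same library for KCs, 0.203% for TCs and 0.174% for DCs/macrophages (dendritic cells and macrophages). Dcn, an FB gene, was at 0.0982%, 0.213% and 0.195% in the same classes. The shares in TCs are the background against which those of the other classes are read. The source of these UMIs was not tested cell by cell.

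A single source of free RNA keeps its genes in a single ratio in every class. The ratios Col3a1 to Col1a1 and Col1a2 to Col1a1 in KCs, TCs and DCs/macrophages were compared with FBs of the same library. The mix of free RNA itself was not measured. Most Col1a1 UMIs lay outside kept cells, and FB clusters differed in the ratio of Col1a1 to Col3a1. The comparison with kept FBs can therefore not decide whether the source was single. The mean difference of log2 ratios ranged from -0.39 (Col1a2 to Col1a1 in TCs, lower than in FBs in 7 of 8 libraries) to 0.70 (Col3a1 to Col1a1 in KCs, higher in 6 of 8). None of the 6 differences passed an exact two-sided sign-flip test, with adjusted p between 0.422 and 0.984 over the 6 (n = 8 libraries). In KCs no Col1a1 UMI was found in vehicle libraries 1 and 2 and no Col1a2 UMI in PBMCsec library 2, so their ratios were set by the 0.5 added to each count. Leaving out single libraries moved the 0.70 to between 0.31 and 0.90. Without the 5% of cells highest in Scrublet score it was 0.82, higher in 7 of 8 (exact sign-flip test p = 0.0156, adjusted 0.0938). With at most 2 UMIs of the 7 genes per cell it was 0.78, again 7 of 8 (exact sign-flip test p = 0.0313, adjusted 0.188). In DCs/macrophages this ratio was -0.29 and -0.00058 under these settings. Without PBMCsec library 4, Col1a2 to Col1a1 in TCs was -0.58, higher in 0 of 7 (exact sign-flip test p = 0.0156, adjusted 0.0938). Few cells carried much of the signal in KCs, where 3 of 1004 cells held 60.3% of the 1245 UMIs of the 7 genes and a single cell held 699.

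The mix in kept FBs was likewise taken as the reference for every gene and class. From the Col1a1, Col1a2 and Col3a1 UMIs of a class in a library, and the mix of the 7 genes in FBs of that library, the number of UMIs expected of each gene was computed and summed over libraries. Intervals on the ratio of observed to expected cover counting error in the observed UMIs only. Expected counts were scaled to the sum of Col1a1, Col1a2 and Col3a1 in the same cells. The ratios of these 3 genes therefore lie around 1 by construction, and only their proportions can differ from FBs. In TCs, 17 Col5a2 UMIs were observed and 16.3 expected, a ratio of 1.05 (0.609 to 1.67). In KCs the ratio was 0.790 (0.553 to 1.09) and in DCs/macrophages 1.39 (0.776 to 2.29). The intervals of Col5a1 and Col5a3 included 1 in all 3 classes. The KC value joined clusters that differed. KC cluster 4 held 839 of the 1167 major-chain UMIs of KCs, and its Col5a2 ratio was 0.446 (0.250 to 0.735). No Col5a3 UMI was found in it where 9.83 were expected (0 to 0.375). A single KC with 699 UMIs of the 7 genes can only lie in this cluster, since each other KC cluster held far fewer. The ratios of cluster 4 therefore rest largely on 1 cell. In KC cluster 15 the ratio was 2.90 (1.39 to 5.33) for Col5a2 and 3.62 (1.46 to 7.46) for Col5a1, each above expectation in 3 of 7 libraries. Its Col5a3 ratio was 10.1 (5.23 to 17.7), above expectation in 1 of 7. Among the major chains, the interval excluded 1 in KCs for Col1a2, at 1.15 (1.04 to 1.26), and for Col3a1, at 0.831 (0.751 to 0.917). By library, however, Col3a1 was above expectation in 6 of 8 and Col1a2 in 5 of 8. These intervals count UMIs of the same cell as independent, and 3 KCs held 60.3% of the UMIs.

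Some clusters of cells like the hair follicle epithelium differed. Cluster 1, led by Fhod3, Id4, Sfrp1 and Lgr5, was left unnamed by the marker rule but had 2452 CPM of Krt5, 3362 of Krt14 and 3184 of Krt17, keratins of basal and follicle keratinocytes, together with 729 CPM of the smooth muscle actin gene Acta2 and 3.52 CPM of the FB gene Pdgfra. It held 203 Col5a2 UMIs where 9.18 were expected, a ratio of 22.1 (19.2 to 25.4), above expectation in 7 of 7 libraries. Col5a1 had 43 UMIs where 4.84 were expected, a ratio of 8.89 (6.43 to 11.98), also in 7 of 7 libraries. Col1a1, Col1a2 and Col3a1, whose ratios lie around 1 by construction, had 0.834 to 1.26 in this cluster, with intervals that included 1. The highest, of Col1a1, was above expectation in 6 of 7 libraries. No Col5a3 UMI was found where 3.35 were expected, and the interval (0 to 1.10) includes 1.

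Cluster 12, also unnamed, had the smooth muscle genes Tagln and Acta2 among its leading genes together with Foxe1 and Fgf5, and 3494 CPM of Krt17 but no UMI of Rgs5 or Myh11. In it, 136 Col5a2 UMIs were observed and 4.52 expected, a ratio of 30.1 (25.2 to 35.6), above expectation in 6 of 8 libraries. Col5a1 had a ratio of 16.6 (11.9 to 22.6). Cluster 5, hair follicle-like by Krt17, Lgr5, Sox9, Lhx2, Sostdc1 and Fst, held 108 Col5a2 UMIs where 5.26 were expected, a ratio of 20.5 (16.8 to 24.8), in 7 of 7 libraries. Its Col5a1 ratio was 9.49 (6.20 to 13.9). The other hair follicle-like clusters, 2 and 7, had lower ratios. Cluster 2 had 2.60 (1.57 to 4.07) for Col5a2, above expectation in 5 of 8 libraries, and 3.87 (2.17 to 6.39) for Col5a1, in 6 of 8. Cluster 7 had 2.09 (0.840 to 4.31) for Col5a2 and 1.09 (0.132 to 3.94) for Col5a1, and both intervals included 1.

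The share of cells with a Col5a2 UMI was 41.7% in cluster 1, 40.3% in cluster 12 and 26.4% in cluster 5, against 2.69% in KCs, which had a similar depth (median of 10721 UMIs per cell, and of 9654, 10377 and 7135 in clusters 1, 12 and 5). Levels stayed far below those of FBs. Col5a2 was at 63.7 CPM ± 19.4 (n = 6 libraries) in cluster 1, 71.8 ± 26.5 (n = 5) in cluster 12 and 46.9 ± 20.2 (n = 6) in cluster 5. In these 3 clusters the pooled Col5a2 level was above that of Col1a1 and of Col3a1 (23.1 and 24.0 pooled CPM in cluster 1). Pooled levels were the reverse in every FB cluster. In PBMCsec library 1 alone, FB cluster 29 had 145 CPM of Col5a2, above Col1a1 at 60.9 but below Col3a1 at 206. These clusters were singled out after their values were seen.

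**Figure D4:**
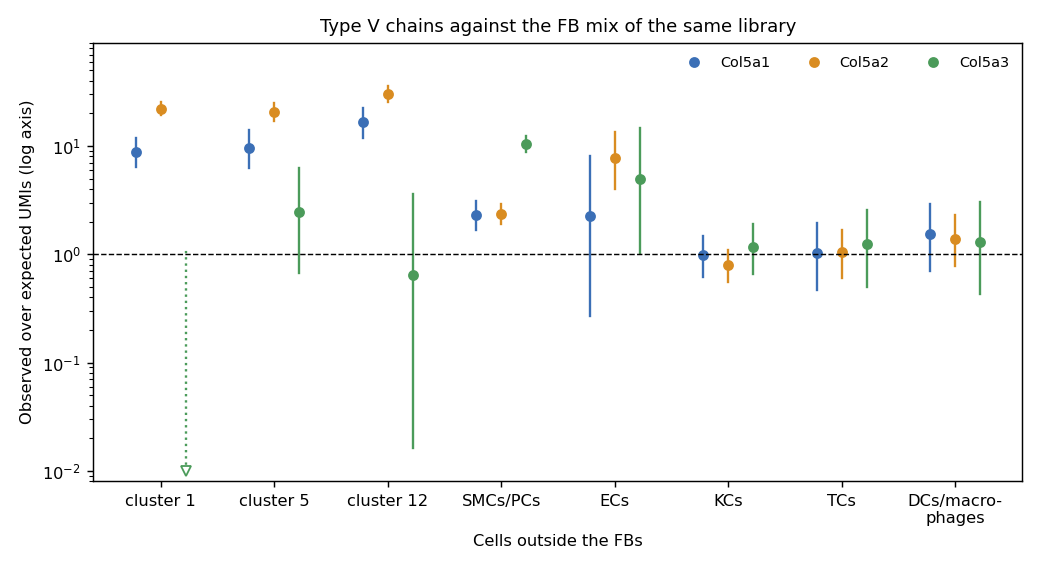
Observed over expected UMIs (log axis) of Col5a1, Col5a2 and Col5a3 in cells outside the FBs, where 1 (dashed) is the mix found in FBs of the same library. Bars are 95% intervals for counting error, and the open triangle marks 0 observed UMIs with its upper limit. Clusters 1, 5 and 12 had 20.5 to 30.1 times the expected Col5a2, and SMCs/PCs 10.5 times the expected Col5a3. For KCs, TCs and DCs/macrophages, each taken as a whole class, the intervals included 1.

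SMCs/PCs were 39 cells in 6 libraries and carried all 9 markers of their list, with 8030 CPM of the pericyte gene Rgs5 and no Pdgfra UMI. Their pooled Col5a3 level was 654 CPM (exact Poisson interval, 547 to 776), against 350 (341 to 361) in FBs. In PBMCsec library 3, the only library that could be compared, it was 413 CPM. That was above the FBs of the same library but below the FB mean over libraries of 497 ± 245 (n = 8). Observed over expected Col5a3 was 10.5 (8.75 to 12.4), above 1 in 6 of 6 libraries. A Col5a3 UMI was found in 71.8% of these cells at a median of 4929 UMIs per cell. Col3a1 was at 2940 CPM, with a ratio of 1.36 (1.26 to 1.48), and Col1a1 at 1313 CPM, with a ratio of 0.875 (0.772 to 0.987). Only PBMCsec library 3 had at least 10 of the cells, so no spread over libraries could be given. In ECs (84 cells) 12 Col5a2 UMIs were observed where 1.55 were expected, in 7 of 8 libraries, a ratio of 7.72 (3.99 to 13.5). A cluster of 57 melanocyte-like cells had 0.262% of its UMIs in the 7 genes and 4717 CPM of Dcn. Its major chains, around 1 by construction, had ratios between 0.947 and 1.03, at a median of 2659 UMIs per cell, while Col5a3 had 3.91 (2.45 to 5.93). Whether it held mixed droplets was not tested.

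The genes whose level over all 36 clusters was most like that of each collagen gene were sought among 9048 genes, by Pearson's r of log2 levels. Col1a1, Col1a2 and Col3a1 each had the other two as their nearest genes, with r from 0.987 to 0.993. Next came Ctsk, the collagen-cleaving cathepsin K, for Col1a1 (0.978) and Adamts2, which removes the N-propeptide of procollagens, for Col1a2 (0.982) and Col3a1 (0.983). For Col5a1 these were C1qtnf7 (0.977), Adamts2 (0.977) and the type VI collagen gene Col6a2 (0.974). Col5a2 was closest to Sspn (0.976), Fkbp14 (0.974), a peptidyl-prolyl isomerase of the endoplasmic reticulum, and Mfap2 (0.973), a microfibril component. Col5a3 was closest to the long noncoding RNA Meg3 (0.978), Gpx3 (0.970) and Rarres2 (0.969). Col11a1 had Tenm3 (0.928), the tendon homeobox gene Mkx (0.879) and Ptprd (0.876). For Col5a1, Col5a2, Col5a3 and Col11a1 alike, none of the 6 other fibrillar collagen genes described here was among the 3 nearest. The 36 clusters share libraries, and 9 of them are FBs, so these correlations are a description.

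The comparison of the study was PBMCsec against vehicle. FB counts were summed per library, and 9567 genes went into edgeR's quasi-likelihood test, with p-values adjusted over all of them (Benjamini-Hochberg). None of the 7 genes was called at an adjusted p under 0.05, where 0% of all genes tested were called. At an unadjusted p under 0.05 there were 98 genes higher (1.02%) and 87 lower (0.909%) by edgeR, 1.93% in all, 83 and 85 by DESeq2, and 118 and 115 by limma-voom, and none of the 7 was among those of edgeR. DESeq2 and limma-voom called 0 genes too. The groups overlapped for all 7 genes, while 1.54% of all genes tested had groups that did not overlap (0.753% higher and 0.784% lower after PBMCsec).

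The values by library are CPM scaled by TMM, edgeR's correction for differences in RNA composition. Col1a1 was at 6418, 5441, 8342 and 9701 CPM in PBMCsec libraries 1 to 4 and at 6370, 8503, 6483 and 8504 in vehicle libraries 1 to 4. The highest and the lowest value were both in the PBMCsec group, and the means were nearly equal, 7475 ± 1912 (SD, n = 4) and 7465 ± 1200 (n = 4). The log2 fold change was 0.00 (SE 0.23, edgeR adjusted p = 0.9999). Col1a2 was at 8278, 7718, 11332 and 12809 CPM after PBMCsec and 8175, 10644, 9069 and 11063 in the vehicle libraries, a log2 fold change of 0.04 (SE 0.22). Libraries 3 and 4 were high and libraries 1 and 2 low after PBMCsec for both chains.

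Col3a1 was at 9626, 9281, 11150 and 13378 CPM after PBMCsec and at 11559, 15250, 11344 and 12359 after vehicle. Its mean was lower after PBMCsec, 10859 ± 1866 against 12628 ± 1802, with a log2 fold change of -0.22 (SE 0.20) that edgeR did not call (adjusted p = 0.9999). Between libraries numbered 1 and 2 alone the log2 fold change was -0.50, and between those numbered 3 and 4 it was 0.05.

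Col5a1 and Col5a3 had their highest values in the vehicle libraries with the fewest FBs. Col5a1 was at 628, 599, 503 and 683 CPM after PBMCsec and at 1020, 851, 557 and 486 in the vehicle libraries, a log2 fold change of -0.26 (SE 0.25). Col5a3 was at 407, 549, 275 and 393 after PBMCsec and at 876, 857, 318 and 335 after vehicle, with a log2 fold change of -0.54 (SE 0.36). For both genes vehicle libraries 1 and 2, with 31 and 27 FBs, were above all 4 PBMCsec libraries, and vehicle libraries 3 and 4 were not. Between libraries numbered 3 and 4 alone the log2 fold change was 0.18 for Col5a1 and 0.03 for Col5a3. Col5a2 was at 1158, 1147, 1047 and 1024 CPM after PBMCsec and at 1539, 1102, 1104 and 1036 after vehicle (log2 fold change -0.13, SE 0.19). Only vehicle library 1 stood apart, and without it the log2 fold change was 0.01.

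Col11a1 was at 8.05, 3.33, 37.6 and 100.4 CPM after PBMCsec and at 7.36, 20.9, 97.3 and 63.4 in the vehicle libraries. Its log2 fold change of -0.56 (SE 0.74) lay between -1.54 and 0.01 when single libraries were left out, the lowest without PBMCsec library 4. The edgeR adjusted p was 0.9999 for each of the 7 genes. Of the other cells' markers in the FB sums, the erythroid list of 4 genes was at 10.6 to 3200 CPM after PBMCsec and at 0 to 19.8 after vehicle, and the KC list at 138 to 380 and 212 to 476. Their part in the values was not tested.

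**Figure D5:**
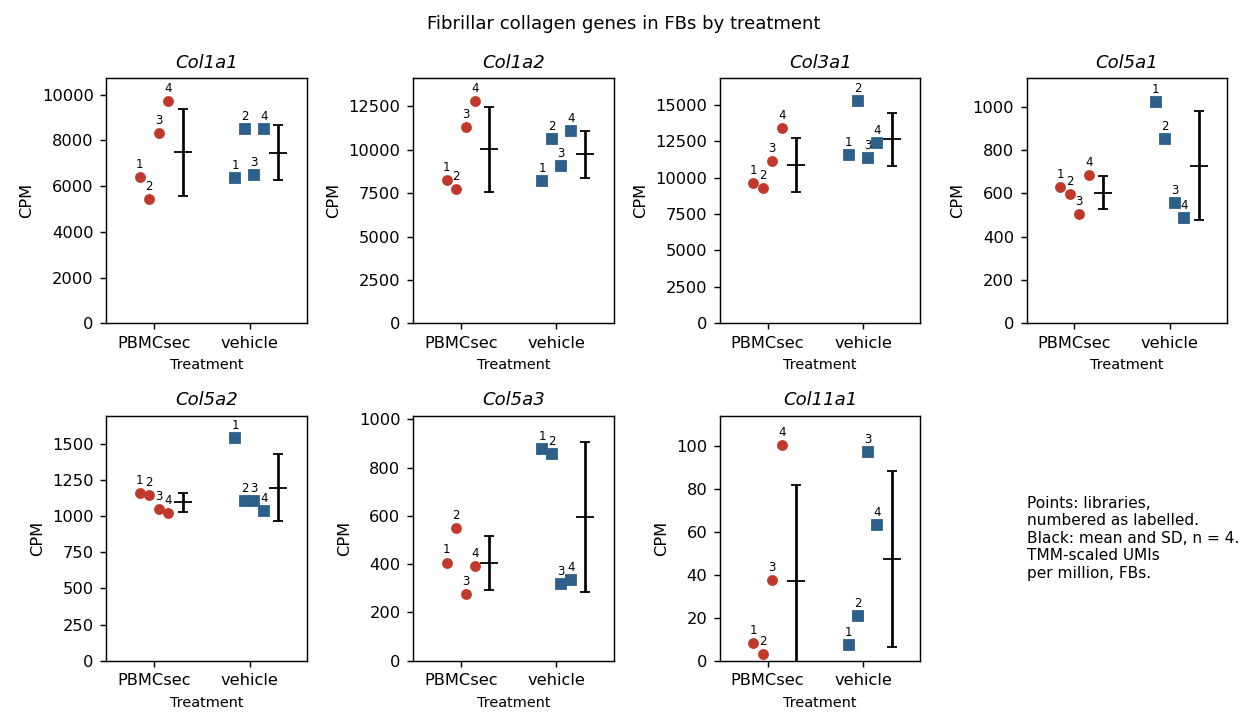
TMM-scaled CPM of the 7 genes in FBs of each library (numbered points; linear axes from 0), for PBMCsec (red circles) and vehicle (blue squares), with the mean and SD (black, n = 4; the lower bar of Col11a1 after PBMCsec is cut at 0). The groups overlapped for every gene, and vehicle libraries 1 and 2 were the highest of all for Col5a1 and Col5a3.

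Cluster 18 weighs heavily in these sums. Without it, the log2 fold change of Col1a1 in FBs was -0.19 and that of Col1a2 -0.11, and neither was called. Within single FB clusters, no cluster had 3 libraries of each treatment with at least 10 cells. With at least 5 cells, a minimum chosen after the cells were counted, clusters 0 (4 libraries against 4), 8 and 9 (4 against 3) and 29 (3 against 3) could be tested. None of the 7 genes was called in any of them by edgeR, where 0% of all genes tested were called, and 2.01%, 2.29%, 2.92% and 1.18% of all genes in clusters 0, 8, 9 and 29 had an unadjusted p under 0.05. In cluster 0 the log2 fold change was -0.46 (SE 0.30) for Col1a1, -0.50 (SE 0.26) for Col3a1 and -0.64 (SE 0.47) for Col5a3, and the edgeR adjusted p was 0.9993 for each of the 6 genes tested there. In cluster 8 these values were -0.32 (SE 0.34), -0.04 (SE 0.30) and 0.36 (SE 0.59), and in cluster 9 they were -0.25 (SE 0.42), -0.20 (SE 0.45) and -0.56 (SE 0.40). In cluster 29 Col1a1 had -0.70 (SE 0.94). Col11a1 had too few counts for a test in these clusters. In cluster 9, Col1a1 and Col3a1 moved most without PBMCsec library 4, to -0.78 and -0.74 (edgeR adjusted p = 0.9992 for each). Clusters 16 and 19 (4 libraries against 2) and 18 (3 against 2) were tested with at least 10 cells per library, a choice made after their values were seen. The log2 fold change of Col1a1 was -0.09 (SE 0.40) in cluster 16, 0.18 (SE 0.33) in cluster 19 and 0.18 (SE 0.24) in cluster 18. None of the 6 genes tested was called there by edgeR (adjusted p, 0.880 or more), where 0%, 0% and 1.27% of all genes were called in clusters 16, 19 and 18. Col11a1 had too few counts there.

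Ratios of the genes within the same cells do not depend on library scaling. The log2 ratio of Col3a1 to Col1a1 UMIs in FBs was 0.58, 0.77, 0.42 and 0.46 in PBMCsec libraries 1 to 4 and 0.86, 0.84, 0.81 and 0.54 in vehicle libraries 1 to 4. Vehicle library 4 was the only vehicle library within the PBMCsec range. The means were 0.56 ± 0.16 and 0.76 ± 0.15 (SD, n = 4 each), a difference of -0.20 (exact two-sided permutation test, p = 0.114, adjusted p = 0.457 over 4 ratios). The smallest p that 4 libraries against 4 allow is 0.0286. For Col1a2 to Col1a1 the difference was 0.04 (exact p = 0.371), for Col5a1 to Col1a1 -0.20 (exact p = 0.629) and for Col5a2 to Col5a1 0.10 (exact p = 0.686), each with an adjusted p of 0.686.

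Of 65 other genes of fibrillar collagen formation and turnover, 55 were tested in FBs, and none was called by edgeR at an adjusted p under 0.05. Among them 20 had a positive and 35 a negative log2 fold change, with a median of -0.09, against 0.00 for all genes tested. Their direction as a group was not tested. At an unadjusted p under 0.05 were 1 higher and 2 lower genes, 3 of 55, where 1.93% of all genes tested were. Serpinh1, the collagen chaperone HSP47, was at 1247, 1708, 966 and 1247 CPM after PBMCsec and at 670, 1118, 799 and 839 after vehicle, with a log2 fold change of 0.59 (SE 0.23, edgeR adjusted p = 0.9999). Only vehicle library 2 reached into the PBMCsec range. Loxl2, a lysyl oxidase that crosslinks collagen, had a log2 fold change of -0.65 (SE 0.29) and the fibronectin gene Fn1 one of -0.76 (SE 0.35). Fn1 was lowest at 1781 CPM in PBMCsec library 2 and highest at 10417 in vehicle library 1.

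The most highly expressed gene of each other role was not called either. Dcn (decorin, which coats fibrils) had a log2 fold change of 0.57 (SE 0.27), Col14a1 (a fibril-bound collagen) -0.24 (SE 0.39), Loxl1 (crosslinking) -0.25 (SE 0.22) and Ddr2 (a collagen receptor kinase) -0.36 (SE 0.26). Pcolce2, an enhancer of propeptide removal, had 0.20 (SE 0.46), the gelatinase gene Mmp2 -0.09 (SE 0.21), the secretion factor gene Mia3 -0.11 (SE 0.19) and Col27a1, another fibrillar collagen, 0.50 (SE 0.76). All 7 collagen receptor genes tested had negative values, from -0.73 to -0.11. Of the 17 genes for chaperones and proline or lysine modification, 8 had positive and 9 negative values.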

How the data were processed

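The 8 libraries were prepared with 10x Genomics 3′ chemistry (v3.1). For barcodes called as cells, the authors deposited the count of UMIs of each gene, not normalized, from reads aligned to mm10. The submitters' processing notes and the file headers name Cell Ranger 3.0.2, and the paper names a later version. Total depth per library was 14753926 to 37880651 UMIs over all barcodes.

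The study's filter was applied here (500 to 4000 genes, at most 20000 UMIs, at most 5% mitochondrial counts; Gm42418, Gm17056 and Gm26917 removed). Seurat 5.3.0 was used to integrate the libraries and cluster cells (2000 variable features without 102 collagen-related genes, 30 dimensions, resolution 1). A cluster was named by at least 3 markers found in at least 25% of its cells at 2-fold or higher CPM than in other cells. That the follicle dermal markers may name FB clusters was settled after the clusters were seen. Doublets were not removed, since Scrublet marked only 22 cells (0.358%).

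Sums of counts per library were compared in edgeR 4.0.16 by its quasi-likelihood test (filterByExpr, TMM scaling, all 8 libraries, no covariate), with DESeq2 1.42.0 and limma 3.58.1 as alternatives (R 4.3.3). The steps were tested on simulated data. In the FB comparison, a true difference set in 100 genes was detected for only 24% of them at 2-fold. At 4-fold the share was 99%. A gene taken at random and not called in FBs could therefore still differ by 2-fold between the treatments. The changed genes were drawn from all genes tested and given a common dispersion. The shares are thus not specific to the 7 genes, whose SE is given with each log2 fold change. Ratios had 0.5 added to each count and were tested by exact permutation with Python 3.11.15 and scipy 1.17.1. The sample, not the cell, was the replicate. Intervals and floors cover counting error only. No deposited file held comparisons of the authors.

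The 7 genes, the marker lists and the list of 65 genes were chosen with earlier results of these data known. Named were all 7 genes, and of the 65 those at an unadjusted p under 0.05 and the highest in FBs of each role. Equal library numbers were checked for pairing by the correlation of their deviations from the group mean in FBs. It was 0.21, -0.01, 0.10 and 0.24 for numbers 1 to 4, and between -0.41 and 0.21 for unequal numbers. This check could not exclude pairing, but the labels name no pairs, so equal numbers were not taken as pairs. PBMCsec library 1 had 0.21 and 0.21 with vehicle libraries 1 and 2, and -0.25 and -0.41 with 3 and 4. For PBMCsec library 4 these values were -0.20 and -0.08, and 0.19 and 0.24. PBMCsec libraries 2 and 3 stayed between -0.13 and 0.10. Whether numbers 1 and 2 were handled apart from 3 and 4 is not given by the labels and was not tested. Libraries of a group differed by more than UMI counting noise in every pair (chi-square per degree of freedom, 3.90 to 14.2). This value takes UMIs of the same cell as independent and does not cover the sampling of cells. Promoter sequences are RefSeq's on GRCm38.p6 and were found for 5 of the 7 genes.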

Additional observations from a re-analysis of the deposited data

Results flagged for a closer look

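In 40 groups of 4 libraries (levels of the 7 genes and their ratios in FBs, and Col1a1, Col1a2 and Col3a1 levels in KCs, TCs and DCs/macrophages), 7 had a library whose distance to the nearest other exceeded Dixon's 95% limit of 0.829 of the group's range. Chance alone gives about 1 in 20 for independent groups, but these groups share cells and libraries, so 7 of 40 cannot be set against that rate. Vehicle library 3 accounted for 5 of the 7, all from its KCs and TCs. In KCs its Col1a1 level was 76.2 CPM against 0 to 5.74 in the other vehicle libraries, its Col1a2 level 111 against 5.14 to 11.5 and its Col3a1 level 83.3 against 12.4 to 23.1. In TCs its Col1a1 level was 117 CPM against 10.04 to 15.6 and its Col1a2 level 128 against 10.04 to 15.6. A single KC with 699 UMIs of the 7 genes and a single TC with 102 are the highest cells of these classes. KCs of vehicle library 3 held 236 Col1a1 UMIs, and those of the next highest library, PBMCsec library 3, held 31. The KC with 699 UMIs can therefore only lie in vehicle library 3, so its flags in KCs share that cell. Without the 5% of cells with the highest Scrublet score, the most Col1a1 and Col3a1 UMIs in a library fell from 494 to 94 in KCs. In TCs this number fell from 102 to 63. Whether the single KC and the single TC were doublets was not tested. In FBs, Col5a2 was at 1539 CPM in vehicle library 1 against 1036 to 1104 in the other vehicle libraries, and the log2 ratio of Col3a1 to Col1a1 was 0.54 in vehicle library 4 against 0.81 to 0.86.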

How the results depend on the processing

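None of the 7 genes was called in FBs under any of 20 alternative settings, where the smallest adjusted p was 0.634. The number of genes called in FBs was 0 in all settings except libraries numbered 1 and 2 alone, with 3 genes (Duoxa2, F3 and Inmt). Fold changes near 0 changed sign. That of Col1a1 (0.00) was -0.0069 by DESeq2, -0.014 by limma-voom, -0.017 with the library number as a replicate block, -0.32 in libraries 1 and 2 alone, -0.014 at clustering resolution 0.5, -0.18 without the hair follicle dermal-like clusters and -0.19 without cluster 18. That of Col1a2 was -0.23 in libraries 1 and 2 alone, -0.086 without the follicle dermal-like clusters and -0.11 without cluster 18, a set of cells left out as a choice made after seeing the data. In libraries 3 and 4 alone the values were 0.049 for Col3a1, 0.18 for Col5a1 and 0.030 for Col5a3, and the log2 ratios differed by -0.010 for Col1a2 to Col1a1 and by -0.22 for Col5a2 to Col5a1. The block called 0 genes in FBs. In FB cluster 8 it turned Col5a3 to -0.54, in a fit that also left out PBMCsec library 2. Vehicle library 2 had only 4 cells of that cluster, too few to match it. Without PBMCsec library 2 and without the block, Col5a3 was at -0.62 there. In libraries 3 and 4 of FB cluster 16 the block gave 0.41 for Col1a1 and 0.37 for Col3a1, neither called. In FB cluster 20 the block called 51 of 3863 genes in place of 0, among them Col1a1 at 1.504, Col1a2 at 1.11 and Col3a1 at 1.23 (edgeR adjusted p, 6.27e-06, 0.000315 and 0.000340). With 2 libraries against 2, that fit leaves little to estimate the spread from beside the block. The block is given only as a check, because the labels do not say that equal numbers are pairs. With at least 5 cells per library (3 libraries against 2), Col1a1 was at 2.03 in cluster 20 and 0 genes were called. The cause of these changes was not tested.

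Leaving out single libraries gave log2 fold changes in FBs of -0.15 to 0.13 for Col1a1, -0.093 to 0.15 for Col1a2, -0.19 to 0.012 for Col5a2 and -1.54 to 0.0086 for Col11a1. The others stayed negative, with -0.33 to -0.11 for Col3a1, -0.42 to -0.06 for Col5a1 and -0.75 to -0.29 for Col5a3. Differences of log2 ratios ranged from -0.44 to 0.059 for Col5a1 to Col1a1 and from -0.026 to 0.21 for Col5a2 to Col5a1. Against FBs they ranged from -0.14 to 0.26 for Col1a2 to Col1a1 and -0.19 to 0.13 for Col3a1 to Col1a1 in DCs/macrophages, and from -0.031 to 0.66 for Col1a2 to Col1a1 in KCs. In FB cluster 0, Col5a2 ranged from -0.41 to 0.20. In FB cluster 8 the ranges were -0.23 to 0.15 for Col1a2, -0.23 to 0.15 for Col3a1, -0.50 to 0.045 for Col5a1 and -0.62 to 0.69 for Col5a3. In FB cluster 9 all stayed negative and uncalled, with -0.78 to -0.099 for Col1a1, -0.74 to -0.028 for Col3a1, -0.62 to -0.038 for Col1a2, -0.61 to -0.15 for Col5a1, -0.60 to -0.24 for Col5a2 and -0.86 to -0.46 for Col5a3. In FB cluster 16 the ranges were -0.32 to 0.15 for Col1a1, -0.16 to 0.19 for Col1a2, -0.31 to 0.13 for Col3a1, -0.17 to 0.23 for Col5a1, -0.015 to 0.33 for Col5a2 and -0.62 to 0.49 for Col5a3. In FB cluster 18 they were -0.093 to 0.53 for Col1a1, -0.10 to 0.44 for Col1a2, -0.13 to 0.34 for Col3a1 and -0.41 to 0.079 for Col5a3, and in FB cluster 19 -0.11 to 0.51 for Col1a1, -0.049 to 0.44 for Col1a2 and -0.19 to 0.21 for Col3a1. In FB cluster 20 they were 1.23 to 1.81 for Col1a1, 1.03 to 1.23 for Col1a2, 0.69 to 1.71 for Col3a1, 0.62 to 1.66 for Col5a1, 0.56 to 1.11 for Col5a2 and -0.67 to 0.047 for Col11a1. Each of these fits in cluster 20 has a single library on 1 side.

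Shares of cells with a UMI depended on depth. Thinned to 1000 UMIs, they were 89.0%, 94.5%, 94.8%, 37.8%, 56.5%, 23.8% and 3.65% of FBs for Col1a1, Col1a2, Col3a1, Col5a1, Col5a2, Col5a3 and Col11a1. With at least 3 UMIs they were 92.4%, 94.9%, 95.97%, 60.4%, 80.6%, 38.1% and 4.66% of FBs. In TCs the thinned shares were 2.78% for Col1a1, 3.99% for Col1a2, 5.31% for Col3a1, 0.483% for Col5a2 and 0.242% for Col5a3. Shares of TCs with at least 3 UMIs were 0.120% for Col1a1, Col5a1 and Col5a2, 0.239% for Col1a2, 0.359% for Col3a1 and 0% for Col5a3 and Col11a1.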
